A study of Homo sapiens with 6 samples.

Results

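SOX7, SOX17 and SOX18 form the SOXF group of SRY-related transcription factors, and their mRNA was followed here in day 8 cells derived from WT hESCs and from hESC clones labelled as MSX2 knockout. The 3 genes were taken by symbol from a deposited expression table of 58364 gene rows, and each symbol stood on 1 row. The table holds 6 RNA-seq libraries of the H1 hESC line, all collected at day 8 of a chemically defined hematopoietic differentiation. Of these, 2 come from unedited H1 cells (WT) and 4 from H1 cells labelled as MSX2 knockout (MSX2-/-), made with CRISPR-Cas9 guides to the second exon of MSX2 delivered by lentivirus and selected with puromycin. The 4 MSX2-/- libraries are 2 replicates of each of 2 single clones, called 1# and 2#, so each clone stands for one editing event and carries the vector, which the WT cells are not stated to carry. The labels name CD31+ cells, which carry an endothelial surface antigen, for the MSX2-/- libraries, and the study's text names them for both genotypes. The label descriptions give replicate 1 of WT, 1# and 2# the letter F and replicate 2 the letter S, without saying what the letters stand for. They are called set F and set S below. Nothing in the labels says whether the replicates were separate cultures, so the p-values measure the spread between these libraries, which may be technical.

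SOXF proteins bind DNA through an HMG box and act mainly in endothelial cells, where they work with ETS, NOTCH and MEF2C factors in arterial, venous and lymphatic identity. SOX7 and SOX17 are also expressed in hemogenic endothelial progenitors (HEPs), the cells that give rise to hematopoietic progenitor cells (HPCs) in the endothelial-to-hematopoietic transition (EHT). SOX17 and SOX7 are known as well from the endoderm, and SOX18 from lymphatic vessels and hair follicles.

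The values are FPKM (fragments per kilobase of transcript, normalised to the depth of the library), so levels of different genes can be set side by side per length. The summed FPKM was 555286 to 617120 per library, and 13366 to 14222 rows reached 1 FPKM. The table gives no read counts. The depth relative to WT replicate 1, read from the smallest values, was 1.01 to 1.18 in the other libraries. The leading principal component (44.1% of the variance) separated the sets, and the next one (27.7%) the genotypes. MSX2 mRNA did not check the labels. It was 3.64 and 1.44 FPKM in WT replicates 1 and 2, 18.0 and 5.62 FPKM in replicates 1 and 2 of clone 1#, and 31.8 and 6.69 FPKM in those of clone 2#. Its log2 fold change was 1.99 (SE 0.69, adjusted p = 0.309), with an adjusted p of 0.0107 with the replicate number as a block. A frameshift can leave an mRNA that can still be sequenced, but that does not account for the higher level, whose cause was not tested. Every direction below is thus that of the libraries labelled MSX2-/-. Endothelial genes were expressed in all 6 libraries, at unlike levels. PECAM1, which encodes CD31, was 186 to 258 FPKM. All 23 genes of an endothelial list averaged 0.5 FPKM or more, with means from 6.07 FPKM for ETV2 to 4662 FPKM for PLVAP.

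In the GENCODE annotation of GRCh38, SOX7 spans 10723768 to 10730512 of chromosome 8 (minus strand), SOX17 spans 54457935 to 54460888 of the same chromosome (plus strand), and SOX18 spans 64047582 to 64049641 of chromosome 20 (minus strand). Each has 2 exons. The positions were matched by symbol, since the table has none and the submitters' processing notes name hg19. SOX7 is overlapped on its own strand by PINX1, a telomerase inhibitor gene, and on the other strand by AC105001.1. PINX1 was 8.64 to 13.7 FPKM and AC105001.1 0.147 to 2.24 FPKM, both under SOX7 in every library. Strand information could tell reads of AC105001.1 from those of SOX7, but not those of PINX1, which lies on the same strand. Whether strand was used is not given in the sources used here. PINX1 had a log2 fold change of 0.07 (SE 0.23, adjusted p = 0.964) between the genotypes.

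All 3 SOXF genes were among the abundant mRNAs. By mean FPKM, SOX18 ranked 253, SOX17 321 and SOX7 811 of the 58364 rows. In WT the levels were 314 ± 119 FPKM for SOX18, 203 ± 53.7 for SOX17 and 165 ± 39.0 for SOX7 (SD, n = 2), and the ranges of neighbours in this order overlapped. In the libraries labelled MSX2-/- they were 305 ± 74.2 FPKM for SOX18, 277 ± 70.2 for SOX17 and 90.8 ± 2.71 for SOX7 (SD, n = 4). There the ranges of SOX18 and SOX17 overlapped, while the highest SOX7 value was under the lowest value of either.

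SOX7, a SOXF factor of early endothelial and hemogenic cells, was lower in every library labelled MSX2-/-. It was 193 and 138 FPKM in WT replicates 1 and 2, 94.4 and 88.1 FPKM in replicates 1 and 2 of clone 1#, and 89.6 and 91.1 FPKM in those of clone 2#. The 4 MSX2-/- libraries lay within a narrow band under both WT libraries, and 9.19% of the 15895 genes tested had all 4 below both WT libraries. Matched to WT by replicate number, SOX7 was 0.489 of WT in clone 1# and 0.465 in clone 2# in set F, and 0.639 and 0.661 in set S.

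The log2 fold change of SOX7 on the log2(FPKM + 1) scale was −0.84 (SE 0.15, 95% interval −1.19 to −0.49), a 1.79-fold lower level. By limma with Benjamini-Hochberg adjustment over all genes tested, its adjusted p was 0.0558, just over the threshold of 0.05, and it ranked 232 by p. With the replicate number as a block it passed (SE 0.11, adjusted p = 0.00780). In these fits 0.963% of genes were called higher and 0.321% lower without the block, and 6.11% and 3.74% with it. Fewer cells that make SOX7 and less SOX7 mRNA per cell cannot be told apart in these bulk libraries.

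The log2 fold change of SOX7 was −0.83 (SE 0.21, adjusted p = 0.406) for clone 1# alone against WT and −0.85 (SE 0.21, adjusted p = 0.605) for clone 2# alone, neither of which passed. With the block these adjusted p-values were 0.0624 and 0.118. Few genes passed with a single clone: 0% for clone 1# (1193 with an unadjusted p under 0.05) and 0.00629% for clone 2# without the block, and 1.47% and 0.239% with it. The difference between clones, 2# minus 1#, was −0.01 with a 95% interval of −0.49 to 0.46, or −0.35 to 0.33 with the block. The clones could thus differ by up to these bounds. Of all genes tested, 0% were called different between the clones by limma, with or without the block, and 225 had an unadjusted p under 0.05 without it.

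The WT libraries lay further apart than the edited libraries for this gene. The SD of SOX7 was 39.0 FPKM over the WT libraries and 2.71 FPKM over the libraries labelled MSX2-/-. Each set holds 1 WT library, so the residual error of a contrast between the sets' effects comes from the edited libraries only. The log2 fold change in set S was 0.44 above that in set F by limma. Its adjusted p was 0.364, so the difference between sets did not pass over all genes, of which 0.0189% did. The log2 fold change was −1.08 without WT replicate 2 (adjusted p = 0.0430) and −0.60 without WT replicate 1 (adjusted p = 0.202), both by limma without the block. Without any one of the edited libraries the adjusted p was 0.139 to 0.169, with no filter on low values 0.119, and with WT and the clones as 3 groups 0.161.

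SOX17, a regulator of arterial and hemogenic endothelium and of definitive endoderm, stood above WT of its own set in all 4 edited libraries. It was 165 and 241 FPKM in WT replicates 1 and 2, 201 and 353 FPKM in replicates 1 and 2 of clone 1#, and 237 and 318 FPKM in those of clone 2#. The genotypes overlapped, since both edited libraries of set F lay under the WT library of set S. Within set F, SOX17 was 1.22 times its WT level in clone 1# and 1.44 times in clone 2#, and within set S 1.47 and 1.32 times. Of the genes tested, 23.6% had every edited library above its matched WT library.

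The log2 fold change of SOX17 was 0.44 (SE 0.26, 95% interval −0.19 to 1.07, adjusted p = 0.627), and it did not pass. In the fit blocked by replicate number the same difference had an SE of 0.09 and an interval of 0.23 to 0.65, and passed (adjusted p = 0.0301). Neither clone passed alone, with adjusted p-values in the blocked fit of 0.147 for 1# and 0.130 for 2#. Without WT replicate 1 the unblocked log2 fold change was 0.17, and without WT replicate 2 it was 0.71. The clones differed by 0.04 on the log2 scale, with a 95% interval of −0.79 to 0.87, or −0.23 to 0.32 with the block. The log2 fold changes in the sets differed by 0.07 (95% interval −0.42 to 0.56, adjusted p = 0.910).

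SOX18, known for its role in lymphatic development, had no genotype difference that passed in either fit. It was 398 and 230 FPKM in WT replicates 1 and 2, 387 and 235 FPKM in replicates 1 and 2 of clone 1#, and 349 and 250 FPKM in those of clone 2#. The values paired off by set and not by genotype. The log2 fold change was −0.02 (SE 0.29, adjusted p = 0.994). Its 95% interval was −0.71 to 0.67, and −0.20 to 0.16 in the blocked fit (adjusted p = 0.903), so changes within these bounds remain possible. In set F, clones 1# and 2# stood at 0.972 and 0.877 of WT, and in set S at 1.02 and 1.09. The difference between the 2 sets' effects was 0.19 (95% interval −0.16 to 0.54, adjusted p = 0.616). Between clones, 2# minus 1#, the log2 difference was −0.03 with a 95% interval of −0.93 to 0.87, or −0.27 to 0.21 with the block.

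**Figure D1:**
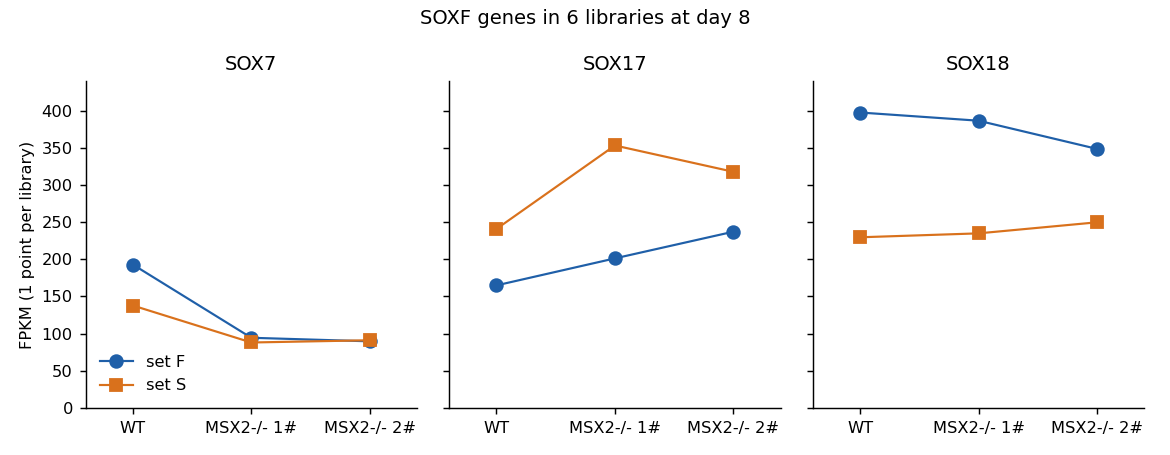
FPKM of SOX7, SOX17 and SOX18 (y axis, linear from 0) in WT, MSX2-/- 1# and MSX2-/- 2#, with 1 point per library and a line joining the 3 libraries of set F (circles) or set S (squares). SOX7 is lower in all 4 edited libraries, at 88.1 to 94.4 FPKM, SOX17 lies above its matched WT point in both sets, and SOX18 separates by set.

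SOX17 and SOX18 differed between the sets in opposite directions, in WT and in both clones. SOX17 was higher in set S than in set F by 0.59 on the log2 scale (SE 0.08, adjusted p = 0.00416 by limma with genotype in the fit). SOX18 was lower in set S by a log2 change of −0.66 (SE 0.07, adjusted p = 0.00209). Its set F libraries held 349 to 398 FPKM and its set S libraries 230 to 250 FPKM, without overlap. SOX7 had a set difference of −0.19 (SE 0.10, adjusted p = 0.198). Many genes differed between the sets. Of those tested, 15.6% were called higher in set S and 18.9% lower, and 22.7% had all 3 set S libraries below all 3 of set F and 18.8% all 3 above. In size, the set difference exceeded the genotype difference for SOX18 and for SOX17 (0.59 against 0.44), and for SOX7 the reverse held.

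**Figure D2:**
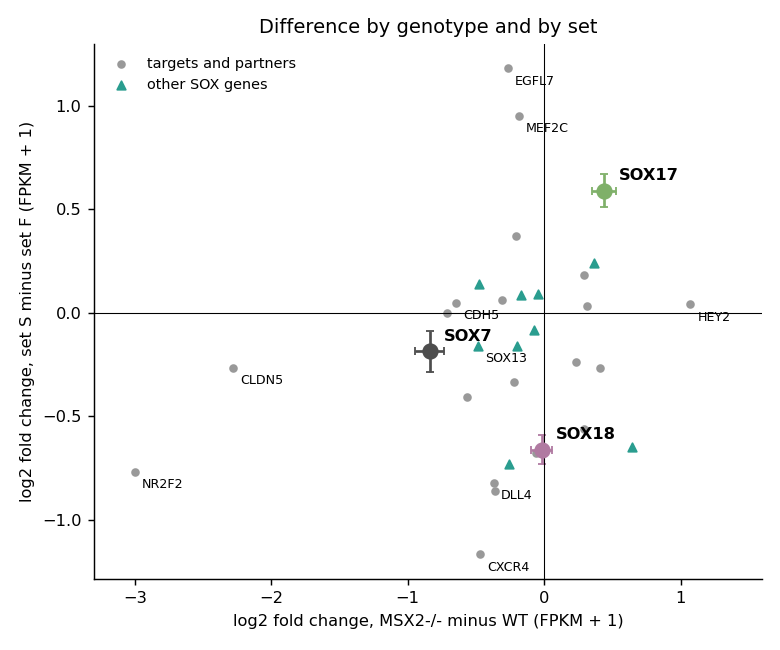
Log2 fold change of MSX2-/- over WT (x axis) against that of set S over set F (y axis), both on the log2(FPKM + 1) scale, for the SOXF genes (large points, bars are SE with the replicate number in the fit), tested SOXF targets and partners (small circles, without ESM1, whose x value is 4.37) and other tested SOX genes (triangles). SOX7 lies left at −0.84, SOX18 low at −0.66 and SOX17 up and right at 0.44 and 0.59.

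The ratio of SOX17 to SOX7 set the genotypes apart in each set. It was 0.855 and 1.75 in WT replicates 1 and 2, 2.13 and 4.01 in replicates 1 and 2 of clone 1#, and 2.65 and 3.49 in those of clone 2#. SOX7 was thus the more abundant in WT of set F and SOX17 in the other 5 libraries, and the lowest edited value was above the highest WT value. The mean ratio was 2.44-fold higher in the libraries labelled MSX2-/- (1.29 on the log2 scale), with 2.78-fold in set F and 2.14-fold in set S. The exact two-sided permutation test over the 15 ways to choose 2 of 6 libraries gave p = 0.067, the smallest it can give. Within replicate numbers the exact permutation p was 0.111, the smallest of its 9 arrangements. Neither can reach 0.05 in this design. Over the 6 ratios tested in this way, those to endothelial genes included, the Benjamini-Hochberg adjusted exact permutation p was 0.133. Without WT replicate 1 the log2 difference was 0.77, and without WT replicate 2 it was 1.80.

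The ratio of SOX18 to SOX7 was 2.06 and 1.67 in WT replicates 1 and 2, 4.09 and 2.67 in those of clone 1#, and 3.89 and 2.74 in those of clone 2#. It was 1.77-fold higher in the libraries labelled MSX2-/-, all of which lay above both WT libraries (exact permutation p = 0.133, two-sided, adjusted p = 0.2, and p = 0.111 within replicate numbers). The ratio of SOX17 to SOX18, which leaves SOX7 out, ranged from 0.415 to 1.05 in WT and from 0.521 to 1.504 in the edited libraries, with overlap. Its genotype difference was 1.38-fold (exact permutation p = 0.533, and 0.222 within replicate numbers), and without WT replicate 1 it turned to −0.21 on the log2 scale. This ratio was 1.26 higher on the log2 scale in set S than in set F, and its exact permutation p over 3 against 3 libraries was 0.1, the smallest that test can give.

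The summed SOXF mRNA was nearly level between the genotypes. It was 755 and 608 FPKM in WT replicates 1 and 2 and 659 to 682 FPKM in the 4 edited libraries, which lay between them (log2 difference −0.01). Its make-up was not level. SOX7 gave 25.5% and 22.7% of the sum in WT and 13.0% to 13.8% in the libraries labelled MSX2-/-. SOX17 gave 21.8% and SOX18 52.6% in WT of set F, and 39.6% and 37.7% in WT of set S. In the edited libraries SOX17 gave 29.5% and 35.1% in set F and 52.2% and 48.2% in set S, for clones 1# and 2# in turn. The shares of one library sum to 100, so they are not independent of each other. The order of the members was SOX18, SOX7, SOX17 in WT of set F, SOX18, SOX17, SOX7 in both edited libraries of set F, and SOX17, SOX18, SOX7 in all 3 libraries of set S.

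**Figure D3:**
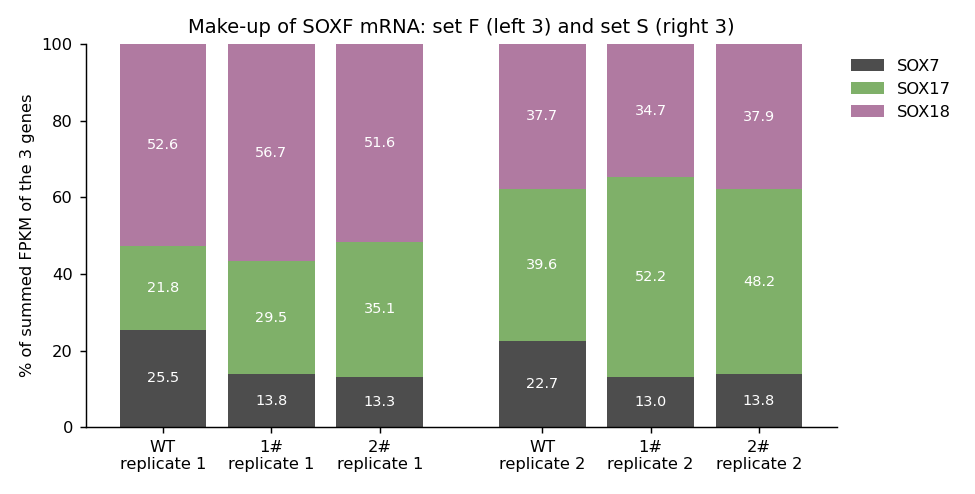
Share of SOX7, SOX17 and SOX18 in their summed FPKM (stacked bars, y axis in % from 0 to 100) in each of the 6 libraries, set F in the left 3 bars and set S in the right 3. The SOX7 share is 25.5% and 22.7% in WT and 13.0% to 13.8% in the edited libraries, and the boundary between SOX17 and SOX18 shifts with the set.

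Each member was also set against the geometric mean of PECAM1 and CDH5 of the same library. CDH5, the gene of VE-cadherin, is itself on the list of SOXF targets and partners read below. The pair is thus not independent of the members, and these ratios cannot settle whether they moved with endothelial mRNA as such. CDH5 had fallen, from 423 and 379 FPKM in WT to 230 to 269 FPKM in the edited libraries (log2 fold change −0.65, SE 0.10, adjusted p = 0.0453 by limma, and 0.00894 with the block). PECAM1 had a log2 fold change of −0.19 (adjusted p = 0.663). Relative to the pair, SOX7 was 0.584 and 0.480 in WT replicates 1 and 2, and 0.366 to 0.431 in the edited libraries, 0.744 times the WT mean. SOX17 was 0.499 and 0.838 in WT and 0.919 to 1.49 in the edited libraries, a 1.81-fold higher ratio, with 2.00-fold in set F and 1.64-fold in set S. For both genes the 4 edited libraries lay on one side of both WT libraries, with an exact permutation p of 0.067, and 0.111 within replicate numbers, in each case the smallest possible. Against the expressed genes of the endothelial list in place of the pair, the log2 differences were −0.46 for SOX7 (exact permutation p = 0.2), 0.83 for SOX17 (0.067) and 0.37 for SOX18 (0.467), so for SOX7 the p was no longer the smallest possible. That list holds CDH5 too, and it shares CLDN5, EGFL7 and ROBO4 with the list of targets and partners. SOX18 relative to the pair was 1.204 and 0.799 in WT and 0.990 to 1.76 in the edited libraries (exact permutation p = 0.333, and 0.111 within replicate numbers). The Benjamini-Hochberg adjusted exact permutation p was 0.133 for SOX7 and SOX17 and 0.4 for SOX18, over the same 6 ratios. Without WT replicate 1 the log2 difference of SOX17 relative to the pair was 0.49 in place of 0.86, and that of SOX7 was −0.28 in place of −0.43.

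**Figure D4:**
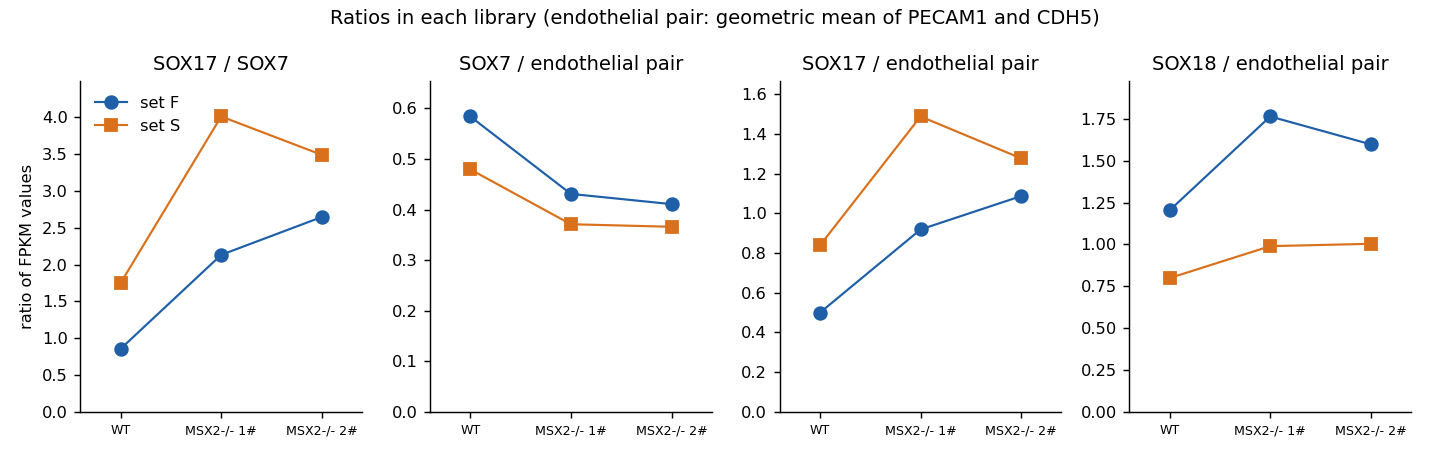
Ratios of FPKM values per library (y axes, linear from 0, scaled separately) for SOX17 to SOX7 and for each SOXF gene to the geometric mean of PECAM1 and CDH5, in WT, MSX2-/- 1# and MSX2-/- 2#, with lines joining set F (circles) and set S (squares). SOX17 to SOX7 is 0.855 and 1.75 in WT and 2.13 to 4.01 in the edited libraries.

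Of the other SOX genes, 16 were listed and 9 averaged 0.5 FPKM or more. None of the 9 was called by limma without the block, and 1 had an unadjusted p under 0.05. With the block 1 was called. Of all 15895 genes tested, 204 were called without the block and 1566 with it. Without the block 1873 had an unadjusted p under 0.05. The counts of the 9 are near these shares. The 1 called with the block was SOX13, a SOXD gene. It was 54.3 and 47.3 FPKM in WT and 32.7 to 39.6 FPKM in the libraries labelled MSX2-/- (log2 fold change −0.49, adjusted p = 0.172, and 0.0161 with the block). The most abundant, SOX4, a SOXC gene, was 89.3 to 113 FPKM (log2 fold change −0.17, adjusted p = 0.641), and SOX12, of the same subgroup, was 51.1 to 69.5 FPKM (−0.20, adjusted p = 0.714). SOX2, the pluripotency factor, was at most 0.128 FPKM, and SOX1 was listed at 0 in every library. The median log2 fold change of the 9 was −0.17, beside 0.01 over all genes tested. SOX4 was thus at the level of SOX7 in the edited libraries, and no other SOX gene on the list reached the lowest SOXF value, 88.1 FPKM.

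A list of 22 genes known as SOXF targets or partners was read next, of which 21 were tested. Without the block 2 were called higher and 3 lower, and with the block 2 higher and 6 lower. Of all genes tested, 0.963% were called higher and 0.321% lower without the block, and 6.11% and 3.74% with it. The median log2 fold change was −0.22. The genes that rose were ESM1, a proteoglycan of endothelial tip cells, and HEY2, a NOTCH target of arterial cells. ESM1 was 5.34 and 10.03 FPKM in WT and 139 to 208 FPKM in the edited libraries (log2 fold change 4.37, SE 0.26, adjusted p = 0.00535). HEY2 was 30.6 and 27.5 FPKM in WT and 54.7 to 66.0 FPKM in the edited libraries (log2 fold change 1.07, SE 0.12, adjusted p = 0.0180). In neither gene did the genotypes overlap. The share of all genes that rose without overlap is not given here, while 9.19% had all 4 edited libraries below both WT libraries.

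The genes of this list that fell were CLDN5, NR2F2 and CDH5. CLDN5, the tight junction protein of endothelium, was 115 and 96.0 FPKM in WT and 17.1 to 28.2 FPKM in the libraries labelled MSX2-/- (log2 fold change −2.28, SE 0.21, adjusted p = 0.0121). NR2F2, the nuclear receptor of venous identity, was 26.4 and 25.5 FPKM in WT, and 2.66, 1.505, 5.78 and 1.06 FPKM in the edited libraries (log2 fold change −3.00, SE 0.46, adjusted p = 0.0404). With the block GJA4, EFNB2 and DLL4 were called lower as well. GJA4, an arterial connexin, was 728 and 535 FPKM in WT and 338 to 412 FPKM in the edited libraries (log2 fold change −0.71, adjusted p = 0.0966, and 0.0323 with the block). EFNB2, an arterial ephrin, was 223 and 140 FPKM in WT and 105 to 131 FPKM in the edited libraries (log2 fold change −0.57, adjusted p = 0.325, and 0.0209 with the block). DLL4, a NOTCH ligand, was 345 and 192 FPKM in WT replicates 1 and 2, 271 and 152 FPKM in those of clone 1#, and 258 and 148 FPKM in those of clone 2# (log2 fold change −0.37, adjusted p = 0.806, and 0.0125 with the block). EFNB2 and DLL4 were picked for mention after their values were seen.

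GJA5 and EGFL7, the other targets among the 3 with the highest mean, had no genotype difference that passed in either fit. GJA5, the other arterial connexin, was 425 and 161 FPKM in WT and 309 to 387 FPKM in the edited libraries, between the WT values. EGFL7, a secreted endothelial factor, was 710 and 1248 FPKM in WT replicates 1 and 2 and split by set in the edited libraries too, at 495 and 479 FPKM in set F and 1226 and 1291 FPKM in set S for clones 1# and 2#. Its set difference was 1.18 on the log2 scale (adjusted p = 0.00170). Of the 21 genes, 3 were called higher and 7 lower in set S, where 15.6% and 18.9% of all genes were called, so the count higher is near that of all genes. DLL4, 1 of the 7 called lower in set S, the direction of SOX18, had a set difference of −0.82 (adjusted p = 0.000831).

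**Figure D5:**
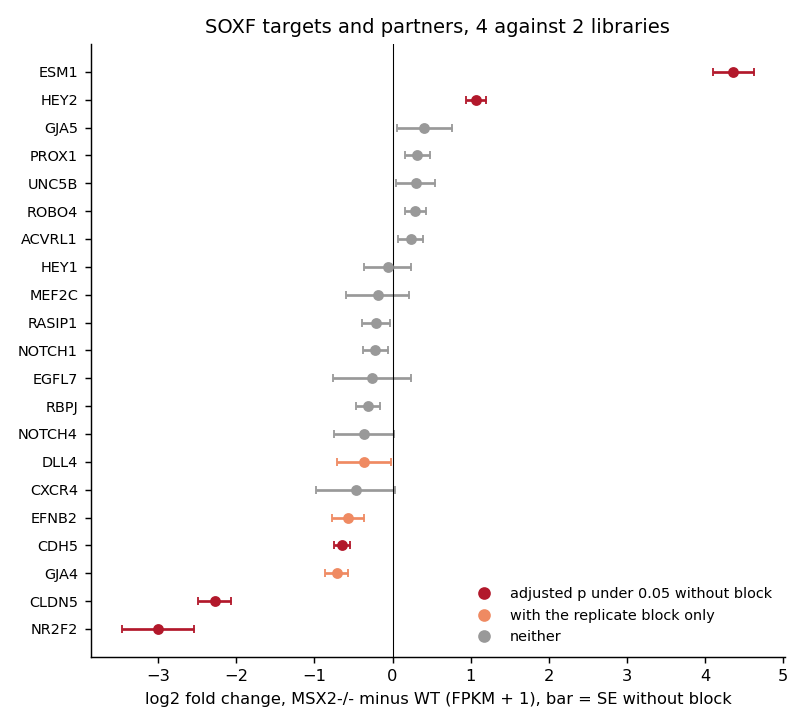
Log2 fold change of MSX2-/- over WT on the log2(FPKM + 1) scale (x axis) for the 21 tested SOXF targets and partners, with bars for the SE of the fit without the block, coloured by whether the adjusted p was under 0.05 without the block, with the replicate block, or in neither fit. ESM1 and HEY2 rose, at 4.37 and 1.07, and NR2F2, CLDN5 and CDH5 fell, at −3.00, −2.28 and −0.65.

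Marker lists of the cell types that a day 8 culture can hold were read beside these values, and the part of these cells in the SOXF values was not tested. For the counts that follow, the shares of all genes called are those given with the targets above, 0.963% higher and 0.321% lower without the block and 6.11% and 3.74% with it. Of 23 endothelial genes, 4 were called lower and 0 higher without the block, and 11 lower and 1 higher with it, and the median log2 fold change was −0.33. The 4 were CDH5, CLDN5, TIE1 and MMRN1. TIE1, a receptor kinase, was 505 and 446 FPKM in WT and 315 to 323 FPKM in the edited libraries (log2 fold change −0.58, adjusted p = 0.0382). MMRN1, a matrix protein found in lymphatic vessels, was 34.3 and 23.8 FPKM in WT and 5.51 to 9.49 FPKM in the edited libraries (log2 fold change −1.79, adjusted p = 0.0301). TEK, the angiopoietin receptor, S1PR1, a receptor for sphingosine 1-phosphate, and KDR, the main VEGF receptor, were called lower with the block only. TEK was 126 and 96.6 FPKM in WT and 55.0 to 66.6 FPKM in the edited libraries (log2 fold change −0.84, adjusted p = 0.0615, and 0.0170 with the block). The log2 fold change was −0.65 for S1PR1 (adjusted p = 0.0638, and 0.00981 with the block) and −0.50 for KDR (0.213, and 0.0112 with the block). ENG, the TGFβ co-receptor endoglin, was the 1 called higher with the block (log2 fold change 0.70, adjusted p = 0.0524, and 0.00977 with it). The summed FPKM of the list, in which PLVAP takes 4075 to 5408 FPKM, was 9754 to 10881 in WT and 8148 to 9143 in the edited libraries.

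Of the hematopoietic genes, some rose in the same libraries. Of 20 listed, 19 were tested, 5 were called higher without the block and 13 with it, and 0 were called lower in either fit, and the median log2 fold change was 0.85. The 5 were GFI1, a repressor needed for EHT (log2 fold change 2.65, adjusted p = 0.0100), GATA2 (1.28, adjusted p = 0.0152), GATA1 (1.15, adjusted p = 0.0220), KLF1 and NFE2. The log2 fold change was 1.85 for KLF1, an erythroid factor (adjusted p = 0.0394), and 1.40 for NFE2, of the erythroid and megakaryocyte lines (adjusted p = 0.0110). RUNX1, the central factor of EHT, was 11.2 and 25.4 FPKM in WT replicates 1 and 2, 29.1 and 55.6 FPKM in those of clone 1#, and 32.1 and 58.8 FPKM in those of clone 2# (log2 fold change 1.25, adjusted p = 0.284, and 0.00163 with the block). Like SOX17, RUNX1 was higher in set S, by 0.96 on the log2 scale (adjusted p = 0.00138), and the edited libraries lay above both WT libraries. CBFA2T3, a corepressor, had a log2 fold change of 1.74 (adjusted p = 0.129, and 0.00798 with the block). LMO2 and LYL1, partners of TAL1 and among the most abundant of the list, passed in neither fit, with log2 fold changes of 0.20 (adjusted p = 0.0711 with the block) and 0.33 (0.198 with the block). The summed FPKM was 453 to 635 in WT and 727 to 1095 in the edited libraries.

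SOX17 also marks endoderm, so the other 19 genes of the endoderm list were read beside it. Of these, 16 were tested, 0 were called without the block and 4 with an unadjusted p under 0.05, and 4 were called higher with the block. The 4 were EPCAM, an epithelial adhesion gene (log2 fold change 1.45, adjusted p = 0.460, and 0.0445 with the block), GATA4 (1.07, 0.165 and 0.0450), GATA6 (1.04, 0.310 and 0.00889) and FOXA3 (0.80, 0.4998 and 0.0248). The median log2 fold change was 0.80. Their summed FPKM was 194 to 243 in WT and 253 to 429 in the edited libraries. HHEX, GATA4 and GATA6 are also expressed by endothelial or mesodermal cells. Without these 3 the remaining 16 genes summed to 57.7 and 82.3 FPKM in WT replicates 1 and 2, 268 and 219 FPKM in those of clone 1#, and 176 and 32.4 FPKM in those of clone 2#. The lowest sum was in clone 2# replicate 2, where SOX17 was 318 FPKM. ALB, the albumin gene, was listed at 0 there and was 15.3 to 125 FPKM in the other 5 libraries. APOA1, an apolipoprotein gene, was 10.5 and 19.7 FPKM in WT, 79.9 and 50.7 FPKM in replicates 1 and 2 of clone 1#, and 72.1 and 10.4 FPKM in those of clone 2# (adjusted p = 0.566, and 0.262 with the block). FOXA2, a defining endoderm factor, was 0.624 and 0.248 FPKM in WT, 2.998 and 0.835 FPKM in clone 1#, and 5.55 and 0.439 FPKM in clone 2# (adjusted p = 0.628, and 0.128 with the block). HNF4A was 0.342 and 0.0789 FPKM in WT, 1.30 and 0.811 FPKM in clone 1#, and 1.81 and 0.139 FPKM in clone 2#. FOXA2 and HNF4A, picked after their values were seen, were thus above the matched WT library in all 4 edited libraries, though neither passed. Of all genes tested, 23.6% had every edited library above its matched WT library. Of the 16 tested endoderm genes, 13 had a log2 fold change above 0 and 3, HHEX among them, below 0. Over all 15895 genes tested, 8149 lay above 0 and 7746 below. Of these, 1873 had an unadjusted p under 0.05 without the block.

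Of 12 mesenchymal genes, 10 were tested, 3 were called higher without the block and 5 with it, and the median log2 fold change was 0.59. The 3 were COL1A1 (log2 fold change 2.30, adjusted p = 0.0152), TAGLN (1.94, adjusted p = 0.0300) and CNN1 (1.53, adjusted p = 0.0152). With the block PDGFRB, a pericyte receptor (1.36, adjusted p = 0.0174), and ACTA2, a smooth muscle actin (0.33, adjusted p = 0.0353), were called too, with 0.0673 and 0.507 without it. COL1A2 had a log2 fold change of −0.07 (adjusted p = 0.923). Of 9 pluripotency genes, 6 were tested, and 0 were called without the block and 0 had an unadjusted p under 0.05. With the block LIN28A was called (log2 fold change 0.45, adjusted p = 0.502, and 0.0143 with it). DPPA4 (0.31, adjusted p = 0.430) and DNMT3B (−0.06, adjusted p = 0.949), abundant on this list, passed in neither fit.

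The members did not share one pattern over the libraries. Over the 6 libraries, which share sets and genotypes, Pearson's r of log2(FPKM + 1) was −0.71 between SOX7 and SOX17, −0.82 between SOX17 and SOX18 and 0.28 between SOX7 and SOX18, given as a description. Among the 9545 genes that averaged 5 FPKM or more, those most like SOX7 by r were DYRK4, FBXO10, MYO7A, MCUB and AL359075.1, with r of 0.993 down to 0.991. DYRK4 was 124 and 84.2 FPKM in WT and 39.7 to 44.9 FPKM in the edited libraries. For SOX17 they were ZPR1, UBE3A, FAM207A, YDJC and SNRPF, with r from 0.998 to 0.988, and for SOX18 TNFRSF10C, STK4, CAMLG, CLIP3 and KMT2E, with r from 0.996 to 0.992. No other gene of the lists above was among these 15. With 9545 genes searched over 6 libraries, high values of r arise readily, and no more is read from them.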

How the data were processed

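RNA-seq was measured in 6 libraries of H1 hESC derivatives at day 8, 2 WT and 4 labelled MSX2-/-. The authors deposited 1 table of FPKM values, with 58364 gene rows and 1 column per library, and 1 further row without values was left out. The sources differ on how it was made. The submitters' processing notes name BWA, Bowtie, RSEM and hg19, while the series text names TopHat and Cufflinks and the table's last line carries Cufflinks headings. Versions, annotation and use of strand are not given in the sources used here. Replicates were not pooled. The sample titles number the clones 7 and 10 and do not say which is 1# or 2#, so the column names were used, and the 4 columns of edited cells were tied to the group and not to single samples. The growth protocol speaks of HAND1 overexpression, so parts of the labels may not describe these libraries.

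No count test was run, since the table holds no counts. limma (3.58.1, R 4.3.3) with a mean-variance trend was fitted on log2(FPKM + 1) over 15895 genes averaging 0.5 FPKM or more, which understates changes of low genes. P-values were adjusted by Benjamini-Hochberg over all of them, with a threshold of 0.05. The fit held genotype only, with a block for the replicate number as the alternative. WT, 1# and 2# share replicate numbers in the labels, and the numbers carry the letters F and S. The difference between replicates 2 and 1 correlated across genes between WT and 1# (r = 0.508), WT and 2# (r = 0.540) and 1# and 2# (r = 0.636), so the numbers were taken to pair the libraries and the blocked value stands beside each result it changes. Genes are not independent replicates. Set, clone and interaction contrasts used the same table, and the 2 clones share their WT libraries. The interaction contrast holds 1 WT library per set, so its intervals and p-values carry no spread between WT libraries. Ratios were tested by exact two-sided permutation of libraries. The fits were tested on simulated data first.

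The members, the gene lists and the tests were chosen with earlier results of these data known. The lists overlap: CDH5, CLDN5, EGFL7 and ROBO4 are on the target and the endothelial lists, and SOX17 is on the endoderm list. SOX2 is on the lists of other SOX genes and of pluripotency genes. Named genes are the 3 members, MSX2, PECAM1, CDH5, list genes called without the block, up to 6 of each list called with it by size of change, the 3 of each list with the highest mean, and the 5 most like each member by r. Genes outside this rule were chosen after their values were seen. These are PINX1, AC105001.1, EFNB2, DLL4, SOX1, SOX2, APOA1, FOXA2 and HNF4A. Alternatives were the block, a pseudocount of 0.1, no filter, 3 groups, each clone alone, rescaled libraries, summed rows per symbol, the endothelial list in place of PECAM1 and CDH5, and leaving out each library. The block for the clone contrast, the rescaled set contrast and splits within replicate numbers for the ratios to PECAM1 and CDH5 were added after seeing the data. Depth in reads is unknown, so no counting interval is given.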

Additional observations from a re-analysis of the deposited data

Results flagged for a closer look

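The genotype difference of SOX18 had opposite signs in the sets. Both libraries labelled MSX2-/- lay below the WT library in set F and both above it in set S. The difference of the log2 fold changes, set S minus set F, was 0.19 (95% interval −0.16 to 0.54). limma's interaction term gave it an adjusted p of 0.616, so it did not pass. It rests on 1 WT library per set.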

How the results depend on the processing

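With the replicate block, SOX7 (log2 fold change −0.84, adjusted p = 0.00780) and SOX17 (0.44, adjusted p = 0.0301) came to pass the threshold and SOX18 did not, and the genes called rose from 153 to 971 higher and from 51 to 595 lower. The block gave 2 SOXF genes called, 1 other SOX gene, 8 targets and partners, 12 endothelial, 13 hematopoietic, 5 endoderm (SOX17 included), 5 mesenchymal and 1 pluripotency gene. With no filter on low FPKM, 65 genes were called higher, and 3 targets, 1 endothelial and 1 mesenchymal gene were called. With 3 groups, 4 genes were called higher and 2 lower, with clone 1# alone 0 and 0 by limma (1193 at an unadjusted p under 0.05), and with clone 2# alone 0 and 1 (954 at that p). Leaving out 1 library in turn gave 7 to 51 genes higher and 4 to 25 lower. It moved the log2 fold change of SOX7 from −1.08 (adjusted p = 0.0430, without WT replicate 2) to −0.60 (without WT replicate 1), that of SOX17 from 0.17 to 0.71, and that of SOX18 from −0.41 to 0.38, above 0 without WT replicate 1 (0.38), 1# replicate 2 (0.10) or 2# replicate 2 (0.07). The log2 difference of SOX17 to SOX18 ranged from −0.21 to 1.13, and that of SOX17 to SOX7 from 0.77 to 1.80. The fits with fewer libraries hold fewer residual degrees of freedom, and no other cause was tested. Those that leave out a WT library hold 1 WT library and so carry no spread between WT libraries. A pseudocount of 0.1 and rescaled libraries kept the sign and the side of the threshold of all 3 members, and summed rows, run for SOX7, those of SOX7. The blocked and unblocked clone contrasts called no member. The WT arm of 2 libraries limits every genotype comparison, and the number of reads behind each value is unknown.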
